A study of Homo sapiens with 4 samples.

Results

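Glycolysis and hypoxia response genes were followed in PC3 cells depleted of ALKBH3. The set held 41 genes by name: 15 glycolytic enzymes, 6 enzymes at branch points of glycolysis, 4 glucose and lactate transporters, 3 subunits of the hypoxia-inducible factors (HIFs) and 13 classic hypoxia targets. A gene was found through the RefSeq accession of its probe, which gave 40 of the 41 genes among 19102 named genes on the array. ALDOA matched no probe. Of these 40 genes, 39 had a probe well above background on both arrays of a group and were tested. SLC2A3, the high-affinity glucose transporter GLUT3, was well above background on 0 of 4 arrays with either of its 2 probes and is given no level here.

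PC3 is a human prostate cancer cell line. The cells carried a lentiviral shRNA against ALKBH3, an enzyme that removes methyl groups from DNA bases, or a control shRNA against GFP. Infection ran for 48 h. The paper's methods give puromycin selection for 48 h or 96 h, and its results call these the times after selection. There were 4 arrays, of the Agilent single-colour kind: 1 for control shRNA and 1 for ALKBH3 shRNA at each time. Infection with a lentivirus, the selection drug and the parent line were common to all 4 samples, and the labels do not say which ALKBH3 hairpin was used. The time points served as the only repeats of an shRNA, with nothing else replicated, and so few arrays leave every value imprecise. Arrays of 1 time point lay on 1 slide, so that time and slide cannot be told apart.

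Glycolysis splits glucose into pyruvate, which is reduced to lactate or passed to mitochondria. Many cancer cells run this pathway fast even with oxygen present. When oxygen is short, the HIF alpha subunits HIF1A and EPAS1 escape degradation, pair with ARNT on hypoxia response elements and switch on glycolytic enzymes, glucose import, lactate export and genes of blood vessel growth. HIF alpha activity is set mostly by protein stability, which an mRNA array does not read.

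The core of the hypoxia response element, ACGTG or GCGTG on either strand (CACGT or CACGC when read from the opposite strand; both directions of a palindromic CACGTG counted), was searched in RefSeq promoter windows of GRCh38.p14 that run from 250 bases before to 50 bases after a transcript start. Of the members, 36 had at least 1 window, and 46 of their 66 windows (69.7%) held the core, against 17012 of all 35116 windows (48.5%). By gene, 10 of 10 hypoxia targets with a window, 6 of 6 branch-point enzymes, 2 of 2 transporters, 14 of 15 glycolytic enzymes and 2 of 3 HIF subunits had it in at least 1 window, against 14318 of all 27305 genes (52.4%). A gene with several windows has more chances to match. The core holds a CG, and the windows were not matched for GC content, so these shares do not show an excess particular to HIF sites. The windows below belong to 4 members to which the results return often, and capitals mark the core. ADM lies at chr11:10304823-10305122 on the plus strand, DDIT4 at chr10:72273674-72273973 on the plus strand, ANGPTL4 at chr19:8363905-8364204 on the plus strand and PFKFB4 at chr3:48556754-48557053 on the minus strand.
ADM: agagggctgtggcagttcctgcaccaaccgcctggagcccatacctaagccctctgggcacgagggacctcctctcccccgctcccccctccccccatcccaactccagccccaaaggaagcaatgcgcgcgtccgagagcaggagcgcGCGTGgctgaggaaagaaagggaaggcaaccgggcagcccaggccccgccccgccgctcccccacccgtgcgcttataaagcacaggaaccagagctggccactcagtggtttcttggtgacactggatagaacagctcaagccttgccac
DDIT4: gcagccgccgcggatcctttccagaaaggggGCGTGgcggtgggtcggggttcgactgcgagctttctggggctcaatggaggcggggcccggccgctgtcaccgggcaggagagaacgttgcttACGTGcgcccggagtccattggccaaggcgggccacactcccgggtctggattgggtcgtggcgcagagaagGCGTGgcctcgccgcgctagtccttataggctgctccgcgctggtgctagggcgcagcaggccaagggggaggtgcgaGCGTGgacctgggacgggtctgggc
ANGPTL4: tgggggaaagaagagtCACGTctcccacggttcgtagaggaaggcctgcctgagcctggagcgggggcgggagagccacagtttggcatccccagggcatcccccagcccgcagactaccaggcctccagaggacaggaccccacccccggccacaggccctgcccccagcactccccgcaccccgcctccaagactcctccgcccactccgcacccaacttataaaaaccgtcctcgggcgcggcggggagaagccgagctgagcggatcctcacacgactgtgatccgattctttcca
PFKFB4: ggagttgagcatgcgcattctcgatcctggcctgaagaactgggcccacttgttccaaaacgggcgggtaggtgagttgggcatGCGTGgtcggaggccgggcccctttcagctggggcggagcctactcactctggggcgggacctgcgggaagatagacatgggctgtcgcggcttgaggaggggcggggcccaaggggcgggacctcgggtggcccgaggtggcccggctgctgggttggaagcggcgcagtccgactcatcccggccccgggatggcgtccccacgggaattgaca
DDIT4 had 4 copies of the core and the other windows 1 each. Counted from 0 at the transcript start, the core began at -101 in ADM, at -166 in PFKFB4, at -234 in ANGPTL4 and at -219, -125, -53 and 25 in DDIT4. A match describes these letters and does not show that a factor binds there.

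Signals are log2 intensities relative to the 75th percentile of their own array, given in the order control 48 h, ALKBH3 shRNA 48 h, control 96 h and ALKBH3 shRNA 96 h. They can be read between arrays for 1 gene, not between genes, because probes differ in brightness. ALKBH3 itself, the target of the shRNA, stood at -0.74, -2.48, -0.89 and -2.41. Both ALKBH3 shRNA arrays lay below both controls, by 1.63 on the log2 scale with an SE of 0.12 (limma adjusted p = 0.253, and 0.0264 with the time point as a replicate block, which passes). The cell type was checked with marker sums (added linear signals, in units of the 75th percentile). All 5 epithelial markers were well above background on 4 of 4 arrays, with a sum of 181 and 166 in control cells and 166 and 161 in ALKBH3 shRNA cells at 48 h and 96 h. The bright keratins KRT19 and KRT18 make up most of that sum. EPCAM went the other way, at 2.87, 3.83, 2.41 and 3.40 (log2 fold change 0.98 for the shRNA, SE 0.24, limma adjusted p = 0.418, and 0.0264 with the block). CDH1 read -0.12, 0.78, -1.28 and -0.71, higher with ALKBH3 shRNA by 0.74 (limma adjusted p = 0.887, and 0.0472 with the block) and lower at 96 h by a log2 fold change of -1.33, past the 2-fold and unadjusted p cutoffs used below. KLK3, a marker of luminal prostate cells, was well above background on 0 arrays, as were the fibroblast genes COL1A2 and PDGFRB. Fibroblast marker sums were 0.63 and 0.42 in control against 0.89 and 0.74 in ALKBH3 shRNA cells, leukocyte sums ran from 0.62 to 0.92 and were lower at 96 h with both shRNAs, and the part of these markers in the results was not tested. In bulk RNA, fewer cells of a type and less RNA per cell cannot be told apart.

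The first question was whether ALKBH3 depletion moved these genes, and their counts were close to those over all genes. At the cutoffs of the study, a 2-fold difference with an unadjusted p below 0.05, 0 of 39 members differed between the shRNAs, where 1.27% of all 14556 genes tested did. At the unadjusted p alone, in the fit without a block, 2 members were higher, ADM and EPAS1, and 0 were lower (8.33% of all genes in either direction). The arrays of the shRNAs did not overlap for 14 members (35.9%), 7 higher and 7 lower, against 36.4% of all genes. With 19 members above 0 and 20 below, the median log2 fold change was -0.002 (range -0.28 to 0.63), and that of all genes -0.003. For 34 members the 95% interval of the fold change lay within 2-fold in both directions (87.2%, against 86.7% of all genes). The other 5 were ADM, EPAS1, PFKFB4, ANGPTL4 and DDIT4. Limma passed 0 genes of the whole array at an adjusted p below 0.05, with 1213 at an unadjusted p below 0.05 (smallest adjusted p = 0.0673). With the time point as a replicate block, 4.46% of all genes and 0 of 39 members passed the adjusted p. EPAS1 came closest (limma adjusted p = 0.0611 with the block). An exact permutation test of 2 arrays against 2 cannot give a p below 0.333.

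**Figure D1:**
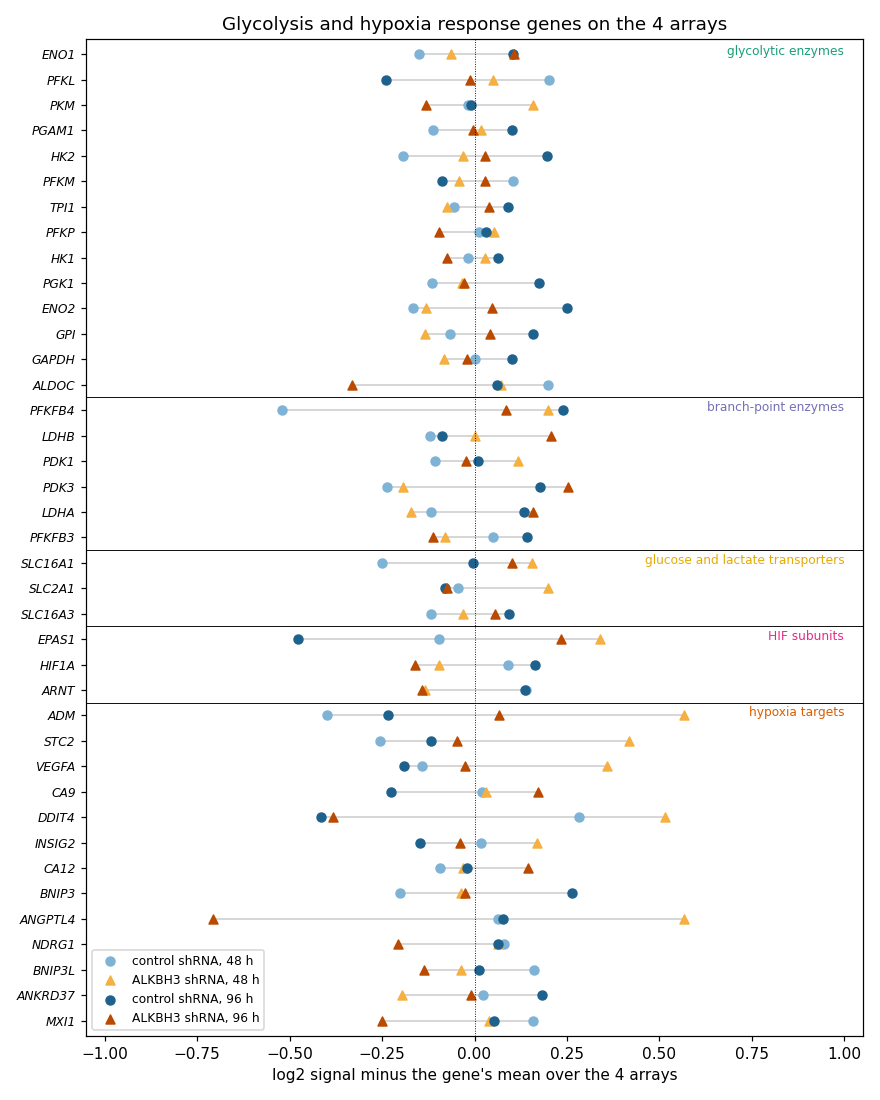
Log2 signal of the 39 tested members on the 4 arrays, each as its distance from the gene's own mean over the arrays (x axis, log2), with genes grouped by role and, within a role, ordered by the shRNA fold change. Each point is 1 array, and the grey line joins the lowest and highest. Most glycolytic enzymes sit in a narrow band, ALDOC and PFKL less so, while ADM, ANGPTL4, DDIT4, EPAS1 and PFKFB4 spread most.

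The HIF subunits came out on opposite sides. EPAS1 (HIF-2 alpha) read 1.39, 1.83, 1.01 and 1.72. Both ALKBH3 shRNA arrays were above both controls, by 0.44 at 48 h and 0.71 at 96 h, which gave a log2 fold change of 0.58 (SE 0.17, unadjusted p = 0.0238, limma adjusted p = 0.505). HIF1A read 2.82, 2.63, 2.89 and 2.56. Its ALKBH3 shRNA arrays were the lower ones at both times, by -0.19 and -0.33 (log2 fold change -0.26, SE 0.11, limma adjusted p = 0.672), and the second HIF1A probe gave -0.32 and -0.29. ARNT, the shared beta subunit, read -3.10, -3.37, -3.10 and -3.38. Here too both ALKBH3 shRNA arrays were lower, with almost the same difference at 48 h (-0.27) and 96 h (-0.28; log2 fold change -0.28, SE 0.11, limma adjusted p = 0.619). With the time point as a replicate block, the limma adjusted p was 0.0611 for EPAS1, 0.125 for ARNT and 0.161 for HIF1A. None of the 3 subunits passed the adjusted p in either fit.

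Of the 13 hypoxia targets, ADM, STC2 and VEGFA had the largest shRNA differences. ADM encodes adrenomedullin, a vasodilator peptide, and stood at -0.24, 0.72, -0.08 and 0.22. Both ALKBH3 shRNA arrays were above both controls, and the difference was 0.97 at 48 h and 0.30 at 96 h. Over the 4 arrays this was a log2 fold change of 0.63 (SE 0.21, unadjusted p = 0.0323, limma adjusted p = 0.550). STC2, a secreted glycoprotein, read -1.31, -0.63, -1.17 and -1.10. Its ALKBH3 shRNA array at 48 h was high and the other 3 lay close together (log2 fold change 0.37, SE 0.20, limma adjusted p = 0.738). VEGFA, the main growth factor of blood vessels, had the same layout at -1.10, -0.60, -1.16 and -0.99 (log2 fold change 0.33, SE 0.17, limma adjusted p = 0.723). Its second probe differed by 0.37 at 48 h and 0.12 at 96 h, close to the 0.50 and 0.17 of the first. All 3 depended on the ALKBH3 shRNA array at 48 h: without it ADM was 0.38, STC2 0.14 and VEGFA 0.14, and without the ALKBH3 shRNA array at 96 h they were 0.88, 0.60 and 0.53.

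The remaining targets differed by less in either direction. MXI1, a MYC antagonist, read -0.29, -0.41, -0.39 and -0.69, and its ALKBH3 shRNA array at 96 h was the low one (log2 fold change -0.21, SE 0.15, limma adjusted p = 0.830, and -0.07 without that array). ANKRD37 and BNIP3L, a mitophagy receptor, also had both ALKBH3 shRNA arrays below both controls, with log2 fold changes of -0.20 and -0.17. CA9, a carbonic anhydrase much used as a hypoxia marker, was well above background on only 3 of 4 arrays, and its difference of 0.20 (SE 0.14) rests on signals at the detection limit. DDIT4, INSIG2 and CA12 were higher by 0.13, 0.13 and 0.11. The list as a whole had 7 members higher and 6 lower, with a median of 0.11 (range -0.21 to 0.63).

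Glycolytic enzymes had small differences over the 4 arrays, with a median size of 0.045 on the log2 scale against 0.12 over all genes. That size averages the 2 times, so differences of opposite sign cancel. The list medians were 0.04 at 48 h and -0.12 at 96 h. All 14 tested had a 95% interval within 2-fold (86.7% of all genes did), the fold changes ran from -0.26 to 0.05 with a median of -0.04, and every interval bound lay between -0.74 and 0.53. ALDOC, an aldolase isoform, was at the low end with 0.13, 0.00, -0.01 and -0.40. The ALKBH3 shRNA array at 96 h stood below the other 3, which lay closer together (log2 fold change -0.26, SE 0.18, limma adjusted p = 0.824, and -0.058 without that array). GAPDH, often the reference gene of qRT-PCR, read 6.11, 6.03, 6.21 and 6.09, with both ALKBH3 shRNA arrays a little below both controls (log2 fold change -0.10, SE 0.12, limma adjusted p = 0.923). PGK1, which makes the first ATP of the pathway, read 6.02, 6.10, 6.31 and 6.11, and the highest array was control 96 h. At the entry and exit of the pathway, the hexokinase HK2 had a log2 fold change of 0.00 (SE 0.17) and the pyruvate kinase PKM of 0.03 (SE 0.15). Both changed sign with time: HK2 was 0.16 at 48 h and -0.17 at 96 h, and PKM 0.18 and -0.12.

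Branch-point enzymes and transporters were mixed. PFKFB4, which makes a fructose bisphosphate that activates phosphofructokinase, read 0.85, 1.57, 1.61 and 1.46. Control 48 h stood alone below the other 3 arrays, so the groups overlapped and the log2 fold change was 0.28 (SE 0.28, limma adjusted p = 0.903), or -0.10 without the control 48 h array. PFKFB3, its paralogue, was -0.19 by the brighter probe and 0.09 by the other, so it has no settled direction. The lactate dehydrogenases LDHA and LDHB differed by -0.01 (SE 0.18) and 0.21 (SE 0.13). SLC16A1, the lactate carrier MCT1, read -0.64, -0.23, -0.39 and -0.29, with both ALKBH3 shRNA arrays above both controls (log2 fold change 0.26, SE 0.14, limma adjusted p = 0.740, and 0.13 without control 48 h). SLC2A1, the glucose transporter GLUT1, and SLC16A3, the lactate exporter MCT4, differed by 0.13 (SE 0.14) and 0.03 (SE 0.13). The phosphofructokinase PFKP also had 2 probes of opposite sign, -0.04 and 0.19. In all, 10 members had 2 or more probes above background on all arrays, and these had the same sign for the shRNA in 8.

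**Figure D2:**
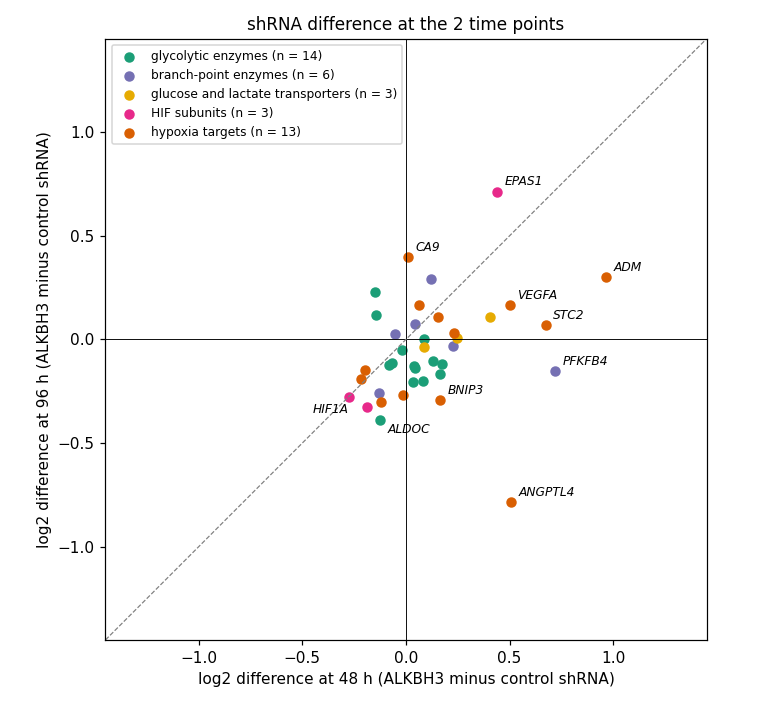
Log2 difference between ALKBH3 and control shRNA at 48 h (x axis) and at 96 h (y axis) for the 39 members, coloured by role. Points are genes, each from 1 array against 1 array, and the dashed line marks equal differences. Most points, 29 of 39, lie below the line. ANGPTL4 and PFKFB4 are among several genes with opposite signs at the 2 times, and EPAS1 and ADM are above 0 at both.

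The second question was how the shRNA difference depended on the time point. Each such difference compares 1 array with 1 array and carries no test. At 48 h 0 of 39 members reached 2-fold (2.17% of all genes), and at 96 h 0 did (1.89% of all genes). For 29 members (74.4%) the difference at 48 h was above that at 96 h, compared with 47.2% of all genes. Over all 39 members the median difference was 0.06 at 48 h and -0.11 at 96 h. The median of the 48 h difference minus the 96 h difference was 0.17 for members and -0.01 for all genes. With the other scalings of the arrays 27 to 29 members lay on that side. Every member's value comes from the same 4 arrays, so the genes are not independent of each other.

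By role, 12 of 14 glycolytic enzymes had the larger value at 48 h (10 of 14 with normexp background correction), with medians of 0.04 and -0.12, as did 9 of 13 hypoxia targets, with medians of 0.15 and 0.03. All 3 transporters did so, and 3 of 6 branch-point enzymes. The lists near this set were counted in the same way. Of 26 further hypoxia targets 20 had the larger value at 48 h, of 16 further glycolysis genes 11, of 12 genes of pyruvate entry into mitochondria 8, of 11 HIF regulators 7, and of 8 pentose phosphate genes 1. Most of these lists leaned the same way as the members. ANGPTL4, a secreted inhibitor of lipoprotein lipase, had the widest change, with 1.32, 1.82, 1.33 and 0.55. The controls were equal while ALKBH3 shRNA was the highest array at 48 h and the lowest at 96 h, a difference of 0.50 and then -0.78 (over both times -0.14, SE 0.44, limma adjusted p = 0.985). PFKFB4 went from 0.72 to -0.15, with control 48 h as the array that stood apart. BNIP3, a mitophagy receptor, went from 0.16 to -0.29. Members that ran the other way, with larger values at 96 h, included PFKL, PFKM, EPAS1, LDHB and CA9. The phosphofructokinase PFKL went from -0.15 to 0.23, and PFKM from -0.15 to 0.12.

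**Figure D3:**
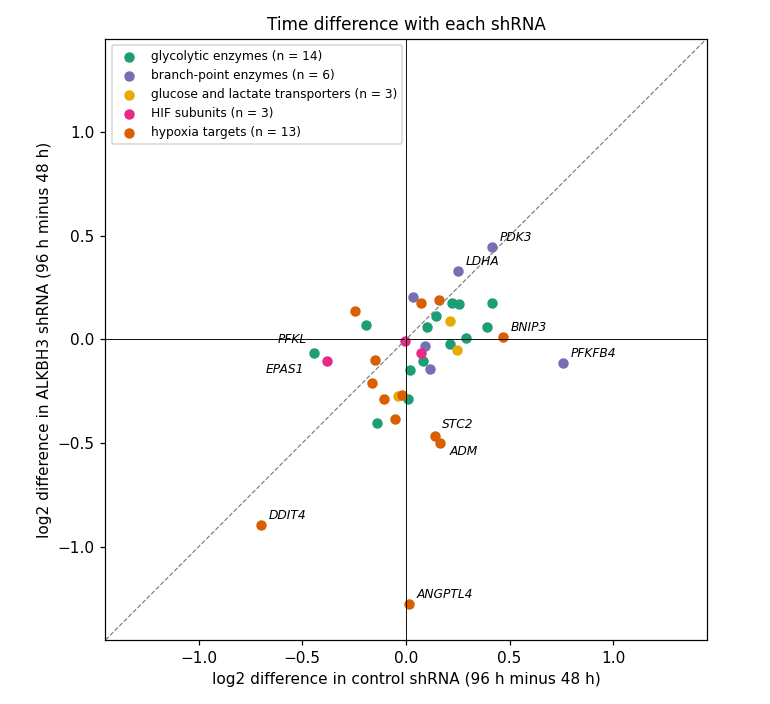
Log2 difference between 96 h and 48 h with control shRNA (x axis) and ALKBH3 shRNA (y axis) for the 39 members, coloured by role. Points are genes from 1 array against 1 array, and the dashed line marks equal differences. DDIT4 is low and PDK3 and LDHA are high on both axes, while ANGPTL4 is low with ALKBH3 shRNA alone.

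The third comparison set 96 h against 48 h over both shRNAs. At the same cutoffs 0 of 39 members differed, where 1.04% of all 14559 genes did. At the unadjusted p alone, 3 members passed 0.05, PDK3 and LDHA higher at 96 h and DDIT4 lower (19.3% of all genes). The time points did not overlap for 17 members, 11 higher and 6 lower, against 53.3% of all genes, a larger share than among the members. The median was -0.005 for members and -0.008 for all genes. Limma passed 0 genes at the adjusted p, with 2806 at an unadjusted p below 0.05 (smallest adjusted p = 0.112). With the shRNA as a replicate block, 13.4% of all genes passed and 2 members did, PDK3 and DDIT4.

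DDIT4, an inhibitor of mTORC1 signalling induced by hypoxia and other stress, read 0.58, 0.81, -0.12 and -0.09. Both 48 h arrays were above both 96 h arrays, and the difference was -0.70 with control and -0.90 with ALKBH3 shRNA (log2 fold change -0.80, SE 0.12, limma adjusted p = 0.114, and 0.0235 with the block). Its shRNA difference was 0.13 (SE 0.39). PDK3, a kinase that shuts pyruvate out of mitochondrial oxidation, read -2.55, -2.51, -2.14 and -2.06. Here both 96 h arrays were the higher ones, by 0.41 and 0.45 (log2 fold change 0.43, SE 0.09, limma adjusted p = 0.142, and 0.0392 with the block). LDHA, which turns pyruvate into lactate, read 5.78, 5.73, 6.03 and 6.06. Both 96 h arrays were higher again (log2 fold change 0.29, SE 0.09, limma adjusted p = 0.207), and the second LDHA probe gave 0.21.

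Among the enzymes of glycolysis proper, HK2, GPI, TPI1, PGK1, ENO1 and ENO2 had both 96 h arrays above both 48 h arrays, and PFKL and ALDOC had them below (57.1% of the 14, against 53.3% of all genes). ENO2, the neuronal enolase isoform, read 0.784, 0.819, 1.20 and 0.996 (log2 fold change 0.30, SE 0.11, limma adjusted p = 0.263). Control 96 h was its highest array, and the difference was 0.19 without it. PFKL, the liver phosphofructokinase, read 2.27, 2.12, 1.83 and 2.05, with control 96 h as the lowest array (log2 fold change -0.25, SE 0.13, limma adjusted p = 0.356, and -0.14 without it). ALDOC was -0.27 (SE 0.17, limma adjusted p = 0.429), and -0.075 without the ALKBH3 shRNA array at 96 h. None of the 14 enzymes had an unadjusted p below 0.05 for time.

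Other wide time differences leaned on 1 array. ANGPTL4 had a log2 fold change of -0.63 (SE 0.33, limma adjusted p = 0.369), made of 0.01 with control and -1.28 with ALKBH3 shRNA, and was the single member past 2-fold within an shRNA. Of all genes, 1.76% passed 2-fold with control, where 0 members did, and 2.47% with ALKBH3 shRNA. Without the control 96 h array, ANGPTL4 reached -1.02 and met the cutoffs, in a fit that sets a lone 96 h array against 2 and assumes that it varies like the 48 h pair. It was -0.24 without the ALKBH3 shRNA array at 96 h. PFKFB4 was 0.32 (SE 0.27, limma adjusted p = 0.549) and -0.037 without control 48 h. EPAS1 was -0.24 (SE 0.30, limma adjusted p = 0.688) and 0.11 without control 96 h. BNIP3 read 4.15, 4.31, 4.62 and 4.32, with control 96 h above the other 3 (log2 fold change 0.24, SE 0.14, limma adjusted p = 0.425, and 0.092 without it).

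**Figure D4:**
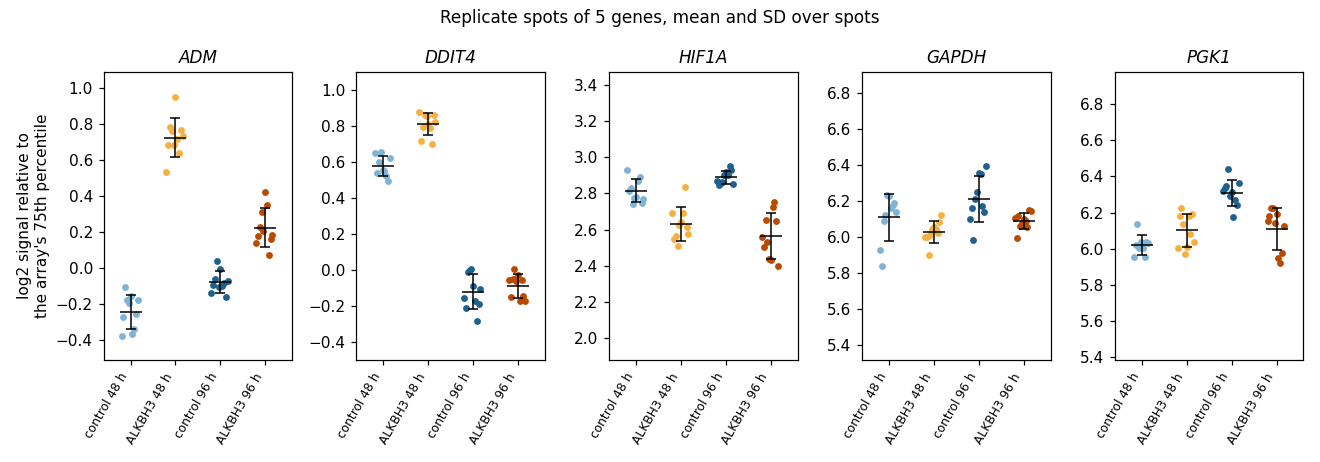
Log2 signal relative to the array's 75th percentile (y axis) of the replicate spots of 5 members on each of the 4 arrays (x axis), with the mean and SD over spots, which is the error within an array and not between samples. All panels span the same range of log2 units. The spots of ADM with ALKBH3 shRNA at 48 h run from 0.53 to 0.95, above those of every other array, and the DDIT4 spots split by time point.

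Several members, 5 in all, had replicate spots on the array, which show how far a signal moves within 1 array. The 10 spots of ADM had an SD of 0.06 to 0.11 on each array. Those of the ALKBH3 shRNA array at 48 h, from 0.53 to 0.95, all lay above those at 96 h, from 0.07 to 0.42. DDIT4 had 9 or 10 spots with an SD of 0.06 to 0.10, and its lowest spot at 48 h, 0.50, was above its highest at 96 h, 0.01. The spots of HIF1A overlapped between control and ALKBH3 shRNA at 48 h, at 2.74 to 2.93 and 2.51 to 2.84, and did not at 96 h, at 2.85 to 2.95 and 2.40 to 2.75. The GAPDH and PGK1 spots overlapped between the shRNAs at 48 h. Spots of 1 array share an RNA sample, so these ranges describe the scanner and the hybridisation only.

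Neighbouring lists gave few further calls. For the shRNA, 0 of 16 further glycolysis genes, 0 of 12 genes of pyruvate entry into mitochondria, 0 of 8 pentose phosphate genes, 0 of 11 HIF regulators and 0 of 26 further hypoxia targets met the cutoffs (1.27% of all genes). For time, 1 gene did (1.04% of all genes): EGLN3, an oxygen-sensing prolyl hydroxylase and itself a hypoxia target, stood at -7.42, -6.58, -5.99 and -5.97. It was not well above background on either 48 h array and entered the test through the 96 h arrays alone. Its difference was 1.43 with control and 0.61 with ALKBH3 shRNA (limma adjusted p = 0.197 over both). The 96 h mean was 1.67-fold above the mean background floor of -6.72, which does not bound the difference within each shRNA. This call rests on 48 h readings that were not well above background. With the time point as a block, 4 of the 26 further hypoxia targets passed the adjusted p for the shRNA (4.46% of all genes), and they are named here after their values were seen. PLOD2, a collagen lysyl hydroxylase, was higher by 0.64 (adjusted p = 0.0431) and the chemokine receptor CXCR4 by 0.57 (adjusted p = 0.0439). The VEGF receptor KDR differed by -0.86 (adjusted p = 0.0439) and the transferrin receptor TFRC by -0.56 (adjusted p = 0.0472). For time, with the shRNA as a block, genes that passed were 1 further glycolysis gene (PCK2), 2 genes of pyruvate entry (PDK4 and PDP2), 1 pentose phosphate gene (H6PD) and 3 further hypoxia targets (EFNA1, HMOX1 and IGFBP3), likewise named afterwards, and all 7 were lower at 96 h. Over all genes 13.4% passed that fit, so the time counts of these lists are near or below the background.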

How the data were processed

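Members and lists were chosen with earlier results of these data known. By the paper's methods, cDNA was prepared from total RNA with a linear amplification kit, and 4 single-colour arrays were hybridised. The authors deposited spot intensities from Agilent Feature Extraction (version 10.7.3.1 in the file headers), background-subtracted and not normalized between arrays, and a table of log2 values that they normalized between arrays with limma, used here as an alternative. Each array had 43118 non-control spots for 34127 probes. Marked spots (180 to 379 per array) were removed, 0 were saturated, and 67.0 to 70.9% of probes were well above background.

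Here log2 intensities were centred on each array's 75th percentile and spots of a probe averaged. Probes took their symbol from their accession in the RefSeq gene table (24910 of 34127 matched; PKM2 stands as PKM). A gene was read from its tested probe of highest mean signal. Probes had to be well above background on the 2 arrays of 1 group or more. Groups were compared with lmFit and eBayes in limma 3.58.1 (R 4.3.3), with no covariate and Benjamini-Hochberg adjustment over all genes tested. Named in full were members past the cutoffs and the 10 with the largest fold change in each comparison. Arrays of a time point share a time and a slide, which pairs them: changes from 48 h to 96 h correlated at 0.70 between the shRNAs across genes, which are not independent replicates. Steps were tested on simulated data. Alternatives were other background corrections, scalings, filters, probe summaries and fold cutoffs, the block and leaving out each array.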

Additional observations from a re-analysis of the deposited data

Results flagged for a closer look

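The shRNA differences of 2 members had opposite signs at the 2 time points and lay at least 0.5 apart on the log2 scale. ANGPTL4 was higher with ALKBH3 shRNA at 48 h and lower at 96 h, and the difference at 48 h minus that at 96 h was 1.29. PFKFB4 had the same order, with a gap of 0.87. Each difference compares 1 array with 1 array, and the gaps were not tested.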

How the results depend on the processing

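With a 1.5-fold cutoff, 1 member was called for the shRNA (ADM) and 1 for time (DDIT4). With no filter on dim probes 1 was called for time (SLC2A3, which is below background). Leaving out 1 array at a time gave 0 to 1 members called for time (ANGPTL4 at -1.02 without control 96 h, where a lone array is assumed to vary like the other group) and 0 to 0 for the shRNA. Taking the shRNA as a replicate block passed 2 members at the adjusted p for time, and the time point as a block passed 0 for the shRNA; the block changed no other call of a member. With 1 array left out, PFKFB4 ran from -0.10 to 0.66 for the shRNA and from -0.037 to 0.68 for time, both negative without control 48 h, and EPAS1 from -0.60 to 0.11 for time, positive without control 96 h. The causes were not tested. Of 410 alternative values, 309 for single genes and 90 for counts and medians kept their direction and their side of the cutoffs. Probes with no symbol kept in the fit was an alternative chosen after seeing the data. Naming genes only by accession equals the reported setting and was not run separately. With 4 arrays, the 95% intervals of ADM, EPAS1, PFKFB4, ANGPTL4 and DDIT4 for the shRNA reach past 2-fold, and the signals of CA9 and, at 48 h, of EGLN3 are near background.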
